A study of Mus musculus with 32 samples.

Results

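Classical Ly6C-high monocytes leave the bone marrow and blood through the chemokine receptor CCR2 and enter injured brain tissue, where they can become macrophages. The genes followed here are 9 transcripts that mark these cells: Ccr2, Ly6c2, Chil3, Plac8, S100a4, S100a6, Vcan, Ms4a4c and Lgals3. They were taken by name, 9 of the 33280 genes in the count tables, and measured in whole brain tissue and in sorted border macrophages after ischemic stroke. All 9 passed the filter on low counts in both materials.

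Wild-type C57BL/6JCrl mice of both sexes received by gavage either BLZ945, an inhibitor of the CSF1 receptor that depletes brain macrophages, or its cyclodextrin vehicle (CTL). BLZ945 was given at 200 mg/kg body weight for 7 days. At 8 weeks after treatment every animal of both groups received a thromboembolic stroke, made by thrombin in the middle cerebral artery. RNA was taken 1 day later from the ipsilateral (lesioned) and the contralateral hemisphere of 8 mice, 4 per treatment, named A2, A3, A4 and B1 (CTL) and C2, C3, C4 and D1 (BLZ945). Every group therefore carried a stroke, and the contralateral hemisphere served as the control within a mouse. For each hemisphere, 1 library was made from whole tissue and 1 from subdural CNS-associated macrophages (sdCAMs), the leptomeningeal and perivascular macrophages, giving 32 libraries. With the choroid plexus taken out, sdCAMs were sorted as CD45+CD11b+CD206+ cells negative for Ly6C, Ly6G and CD11c. That gate was set against Ly6C+ monocytes, so monocyte transcripts in the sdCAM libraries were measured in what remained after it. The study's methods mention cells of 2 BLZ945 mice pooled into a replicate without saying whether this holds for these libraries.

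The 16 tissue libraries held 9288717 to 12781505 counts, so that 3 counts, the smallest number treated as detection, equalled 0.235 to 0.323 CPM (counts scaled to library size). The sdCAM libraries of A3 ipsilateral (54055 counts) and C2 ipsilateral (55155 counts) came from RNA labelled degraded. They held 5 and 1 counts on the 9 genes and were left out. The remaining 14 sdCAM libraries held 7397393 to 11081409 counts. The tissue libraries of A3 carried opposite hemispheres in the sample labels and in the headers of the count table. The sample labels were followed, and the values of the 9 genes under the headers are given after the counts of calls in tissue. Levels are CPM scaled by edgeR's TMM factors, and fold changes are log2 values from edgeR's quasi-likelihood test with Benjamini-Hochberg adjusted p-values over all genes tested. A gene was called when its adjusted p was under 0.05 and its log2 fold change was beyond 0.59.

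CCR2 is the receptor that draws monocytes out of the marrow and into tissue. LY6C2, a GPI-anchored surface protein, is the antigen that the Ly6C antibody reads on monocytes. Chil3 encodes a chitinase-like secreted lectin of monocytes, neutrophils and alternatively activated macrophages, and Plac8 a small cysteine-rich protein of monocytes and granulocytes. S100a4 and S100a6 encode calcium-binding proteins that fibroblasts, astrocytes and other cells also make. Vcan encodes versican, a matrix proteoglycan that in brain is also made by oligodendrocyte precursors. Ms4a4c encodes a tetraspan membrane protein of monocytes. Lgals3 encodes galectin-3, a lectin of phagocytes that reactive microglia and macrophages also produce.

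Ly6c2 has a near copy, Ly6c1, which endothelial cells express. Over the 396 coding bases of the GENCODE M21 transcripts, the 2 genes differed at 9 bases and were 97.7% identical, with 188 bases as the longest run they shared. The first 240 bases of both reading frames are shown because reads of 50 bases decide between the genes at few positions. Capitals mark the 6 bases of this stretch that differ.
Ly6c2: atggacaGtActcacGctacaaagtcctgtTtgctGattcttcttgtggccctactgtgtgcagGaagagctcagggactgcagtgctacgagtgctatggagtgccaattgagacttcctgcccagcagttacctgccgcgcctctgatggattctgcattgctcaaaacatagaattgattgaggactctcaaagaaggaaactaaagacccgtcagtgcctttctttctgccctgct
Ly6c1: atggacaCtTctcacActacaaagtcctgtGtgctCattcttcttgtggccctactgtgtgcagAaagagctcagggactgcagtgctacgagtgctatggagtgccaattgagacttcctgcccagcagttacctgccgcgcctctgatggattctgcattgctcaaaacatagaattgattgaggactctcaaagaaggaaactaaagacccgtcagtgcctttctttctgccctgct
Of the 817 windows of 50 bases in the Ly6c2 transcripts, 255 (31.2%) also occurred in another gene, 252 of them in Ly6c1. Reads from those windows could not be placed in Ly6c2 alone, so its counts are uncertain. Chil3 shared 28.5% of its windows with Chil4 and the gene model Gm6522, and Chil4 had 0 counts in every tissue group. S100a4 shared 47.4% with the gene model Gm42674, and Ms4a4c shared 8.19%, mostly with Ms4a4b. The counts of Chil3, S100a4 and Ms4a4c are therefore uncertain as well, according to the shares given. Plac8, S100a6, Vcan and Lgals3 shared none.

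In whole tissue, most of the monocyte genes were near the limit of detection contralaterally and higher in the lesioned hemisphere. Lgals3 gave the clearest difference among the genes counted in every library, and S100a4 was counted almost only on the lesioned side. S100a6 was higher by a small margin, and Vcan did not move. In CTL mice all 9 log2 fold changes were above 0, and in BLZ945 mice 8 of 9 were. Ly6c2 and Ms4a4c had 0 contralateral counts in CTL and 2 and 4 in BLZ945. S100a4 had 1 in each treatment, Chil3 had 2 in each, and Plac8 had 3 in CTL and 2 in BLZ945. These genes passed the filter, 8 counts summed over the tissue libraries, only through the lesioned side. That favoured values above 0 for them, and no median over the 9 genes is given for tissue.

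**Figure D1:**
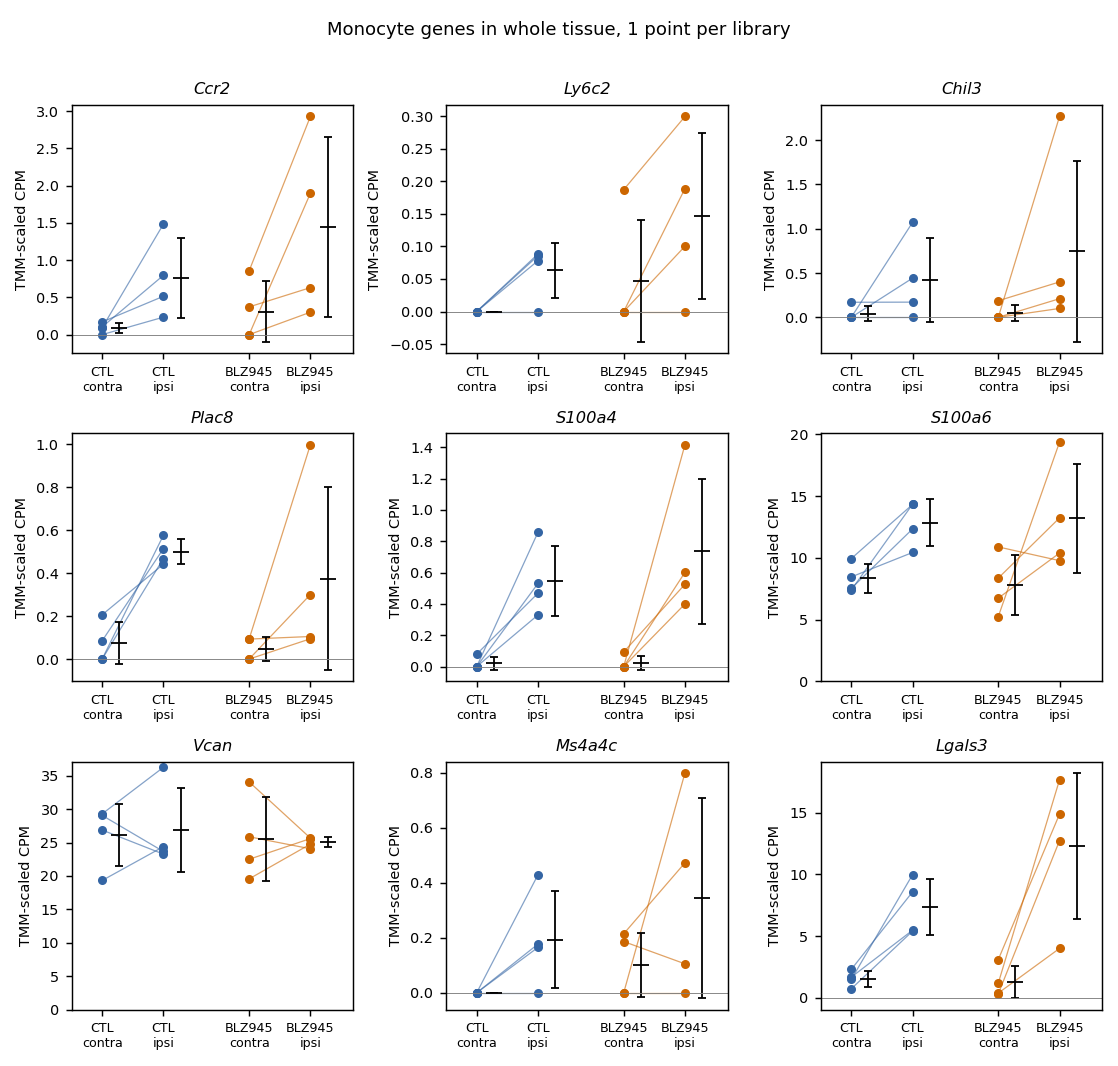
Levels of the 9 monocyte genes in whole tissue, as TMM-scaled CPM on linear axes, with 1 point per library and lines joining the hemispheres of a mouse. Crossbars and whiskers give the mean and SD of 4 libraries, and Vcan is the only gene with its 4 group means between 25 and 26.9 CPM.

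S100a4 counted 1, 0, 0 and 0 reads in the contralateral tissue of A2, A3, A4 and B1, and 6, 10, 6 and 4 reads ipsilaterally. In BLZ945 mice C2, C3, C4 and D1 it counted 0, 0, 1 and 0 contralaterally and 15, 6, 5 and 4 ipsilaterally. The hemispheres did not overlap in either treatment. The fitted log2 fold change was 4.05 in CTL (SE 0.995, adjusted p = 0.0484) and 4.38 in BLZ945 (SE 0.974, adjusted p = 0.0143). S100a4 passed the count filter only through its ipsilateral reads. The filter thus favoured values above 0, and these p-values describe the counts without serving as support. From the summed counts, 26 against 1 in CTL, the ratio was 24.4 with a counting interval of 4.0 to 999. In BLZ945 it was 30.2 (30 against 1 counts, 5.02 to 1231). With the headers' hemispheres for A3, the CTL value was 0.45 and the call was lost. The CTL call was also lost when any 1 mouse other than C2 was left out, with adjusted p-values from 0.0675 to 0.43, and with the mouse as a replicate block (adjusted p = 0.0774). The BLZ945 call was lost without C2, C3 or D1.

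Lgals3 was counted in every tissue library. Its contralateral tissue levels were 1.67, 2.29, 0.72 and 1.48 CPM in the CTL mice, and its ipsilateral levels were 5.47, 8.57, 5.39 and 9.97 CPM. In BLZ945 mice it went from 1.18, 0.31, 0.37 and 3.09 CPM to 17.7, 12.7, 3.99 and 14.9 CPM. Every lesioned hemisphere exceeded every contralateral one within a treatment. The log2 fold change was 3.29 in BLZ945 (SE 0.559, adjusted p = 0.00438), which passed the test, and 2.23 in CTL (SE 0.537, adjusted p = 0.101), which did not. With the mouse as a replicate block the CTL value was 2.23 with an adjusted p of 0.000285, and it was called. Without C2 the BLZ945 call was lost. The difference between the treatments' responses was 1.06 (95% interval -0.57 to 2.69, adjusted p = 1.00), so the larger value in BLZ945 mice was not shown to differ.

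S100a6 was present in every tissue library. In CTL it averaged 8.33 ± 1.17 CPM contralaterally and 12.9 ± 1.87 CPM ipsilaterally (SD, n = 4). In BLZ945 the means were 7.81 ± 2.41 and 13.2 ± 4.38 CPM. It was higher on the lesioned side in 4 of 4 CTL and 3 of 4 BLZ945 mice, with C4 the exception. Neither treatment alone passed the test, with log2 fold changes of 0.63 and 0.75.

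Ccr2 counted 0, 2, 1 and 1 contralaterally and 3, 6, 9 and 18 ipsilaterally in the CTL mice. In BLZ945 mice it counted 8, 0, 4 and 0 contralaterally and 31, 3, 6 and 19 ipsilaterally. By the sample labels all 8 mice had more Ccr2 on the lesioned side, but the 2 BLZ945 hemispheres overlapped between animals. The summed counts gave a ratio of 8.43 in CTL (3.02 to 32.6) and 4.95 in BLZ945 (2.63 to 10.1), intervals that cover counting error only. The fitted values, 2.92 and 2.22, did not pass the test over all genes (adjusted p = 0.57 and 0.338).

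Plac8 and Chil3 were as sparse. Plac8 counted 0, 1, 2 and 0 contralaterally and 6, 6, 5 and 7 ipsilaterally in CTL. In BLZ945 mice its counts were 0, 0, 1 and 1 contralaterally and 1, 3, 1 and 10 ipsilaterally. The CTL hemispheres were well apart, whereas D1 carried most of the BLZ945 reads. Chil3 counted 0, 2, 5 and 13 ipsilaterally in CTL and 24, 1, 2 and 4 in BLZ945, against 2 contralateral reads in all per treatment. Most Chil3 reads of the lesioned BLZ945 tissue came from C2. Neither gene was called within a treatment.

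Ly6c2 and Ms4a4c could hardly be measured in tissue. Ly6c2 never exceeded 3 counts in a library and had none in the contralateral CTL tissue. Ms4a4c had 0 contralateral reads in CTL and 9 ipsilateral ones, a ratio of at least 2.81 against a floor of 3 counts over the group. In BLZ945 it counted 2, 0, 2 and 0 contralaterally and 5, 0, 1 and 8 ipsilaterally. Neither gene was called, with adjusted p-values of 0.89 and 0.689 in CTL. With the headers' hemispheres for A3, the Ms4a4c value in CTL fell below 0.

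Vcan did not follow the other genes. Its mean was 26.1 ± 4.67 CPM contralaterally and 26.9 ± 6.26 CPM ipsilaterally in CTL, and 25.5 ± 6.27 and 25 ± 0.756 CPM in BLZ945. The log2 fold change was 0.04 in CTL (95% interval -0.33 to 0.41) and -0.03 in BLZ945 (-0.40 to 0.34). The 8 oligodendrocyte precursor markers, which include Pdgfra and Cspg4, summed to at least 332 CPM in each of the 16 tissue libraries, and none of them was called in either treatment.

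Counted over the 9 genes, 1 was called in CTL tissue, where 0.443% of all genes were called, and 2 in BLZ945 tissue, where 1.16% were. At an unadjusted p under 0.05 the counts were 7 of 9 in CTL, against 6.23% of all genes, and 6 of 9 in BLZ945, against 10.8%. Hemisphere ranges lay apart for 5 of 9 genes in CTL (3.92% of all genes) and 3 of 9 in BLZ945 (6.51%). Plac8 is among these 3 only through library size, since both BLZ945 hemispheres included libraries with 1 count. With the mean of both treatments, 4 of 9 genes passed the test, against 2.01% of all genes. These were S100a4 at 4.21 (adjusted p = 0.000566), Lgals3 at 2.76 (0.000392), Plac8 at 2.68 (0.0366) and S100a6 at 0.69 (0.0252). Ly6c2, Chil3, Plac8, S100a4 and Ms4a4c passed the count filter only through the lesioned side. The filter therefore partly set these counts of genes, and the shares of all genes do not measure support for them. Ccr2 at 2.57 and Chil3 at 3.30 stayed above the threshold (0.0543 and 0.0774), and both were called with the replicate block (2.58 at 0.00652 and 3.06 at 0.0408) and in DESeq2. The Plac8 call was lost without A2, A3, B1, C2, C3 or D1 and the S100a6 call without A2, A3, B1, C2 or C3, while S100a4 and Lgals3 were called without any 1 mouse. With the headers' hemispheres for A3, 0 of 9 genes were called in CTL, in BLZ945 and in the mean. The CTL values were then 2.94 for Chil3, 1.84 for Ccr2, 1.09 for Plac8, 0.88 for Lgals3, 0.45 for S100a4, 0.32 for S100a6 and -0.35 for Ms4a4c. In BLZ945 the values of these genes other than Ms4a4c moved by less than 0.01, but the adjusted p rose to 0.0942 for Lgals3 and 0.192 for S100a4. In the mean, Lgals3 stood at 2.08, S100a4 at 2.41, Plac8 at 1.88 and S100a6 at 0.54, with adjusted p-values from 0.111 to 0.369. Without A3 altogether, 0, 2 and 2 were called. In bulk tissue, more monocytes, more RNA per cell and RNA from other cells that make these genes cannot be told apart.

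The promoters of the 4 genes called over both treatments are shown as RefSeq gives them for GRCm38.p6, over 200 bases on the strand of the gene. Capitals mark GAGGAA on either strand, the core letters bound by the myeloid factor PU.1.
S100a4, chr3:90603570-90603769 (+ strand): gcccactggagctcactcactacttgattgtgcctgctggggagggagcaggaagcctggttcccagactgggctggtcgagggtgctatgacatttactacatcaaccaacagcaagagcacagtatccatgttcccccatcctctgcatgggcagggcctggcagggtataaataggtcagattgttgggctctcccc
S100a6, chr3:90612694-90612893 (+ strand): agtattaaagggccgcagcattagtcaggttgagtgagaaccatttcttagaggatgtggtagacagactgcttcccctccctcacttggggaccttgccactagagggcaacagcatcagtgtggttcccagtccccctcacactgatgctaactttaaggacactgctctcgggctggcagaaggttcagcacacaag
Lgals3, chr14:47373660-47373859 (+ strand): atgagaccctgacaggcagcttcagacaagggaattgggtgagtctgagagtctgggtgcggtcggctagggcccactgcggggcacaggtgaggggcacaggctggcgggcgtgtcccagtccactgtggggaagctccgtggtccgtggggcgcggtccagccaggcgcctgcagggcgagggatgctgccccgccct
Plac8, chr5:100572206-100572405 (- strand): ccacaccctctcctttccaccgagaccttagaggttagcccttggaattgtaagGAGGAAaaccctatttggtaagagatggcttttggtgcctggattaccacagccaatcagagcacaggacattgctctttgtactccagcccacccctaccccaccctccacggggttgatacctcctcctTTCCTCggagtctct
GAGGAA stood 2 times before the first Plac8 start and in none of the 3 other promoters. Over 250 bases, 3 of the 9 genes held it (Ly6c2, Plac8 and Ms4a4c), and 23.3% of all 32851 promoters did. C/EBP sites, searched as TTGCNNAA on either strand, occurred only at the second Plac8 start, and 9.56% of all promoters had them. The 4 genes called in tissue shared neither motif in this window.

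The treatments were then compared within a hemisphere. In ipsilateral tissue 7 of 9 genes were higher in BLZ945 than in CTL mice, and 0 of 9 were called or had an unadjusted p under 0.05. The log2 differences were 1.11 for Ly6c2, 0.93 for Ccr2, 0.83 for both Chil3 and Ms4a4c, 0.75 for Lgals3, 0.43 for S100a4, 0.039 for S100a6, -0.10 for Vcan and -0.41 for Plac8. Contralaterally 5 of 9 were higher, and again 0 of 9 were called or had an unadjusted p under 0.05. Ccr2 differed there by 1.63, Chil3 by 0.12, S100a4 by 0.11, Vcan by -0.037, S100a6 by -0.09, Lgals3 by -0.31 and Plac8 by -0.39. Ly6c2 and Ms4a4c had 0 counts in the CTL group and 2 and 4 in BLZ945, and no fold is given. Across all genes edgeR called 0% in either hemisphere and 0% for the difference of the stroke responses. The interval for Ccr2 in ipsilateral tissue ran from -0.74 to 2.60 and for Lgals3 from -0.25 to 1.74, so a difference in either direction could not be told from none.

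**Figure D2:**
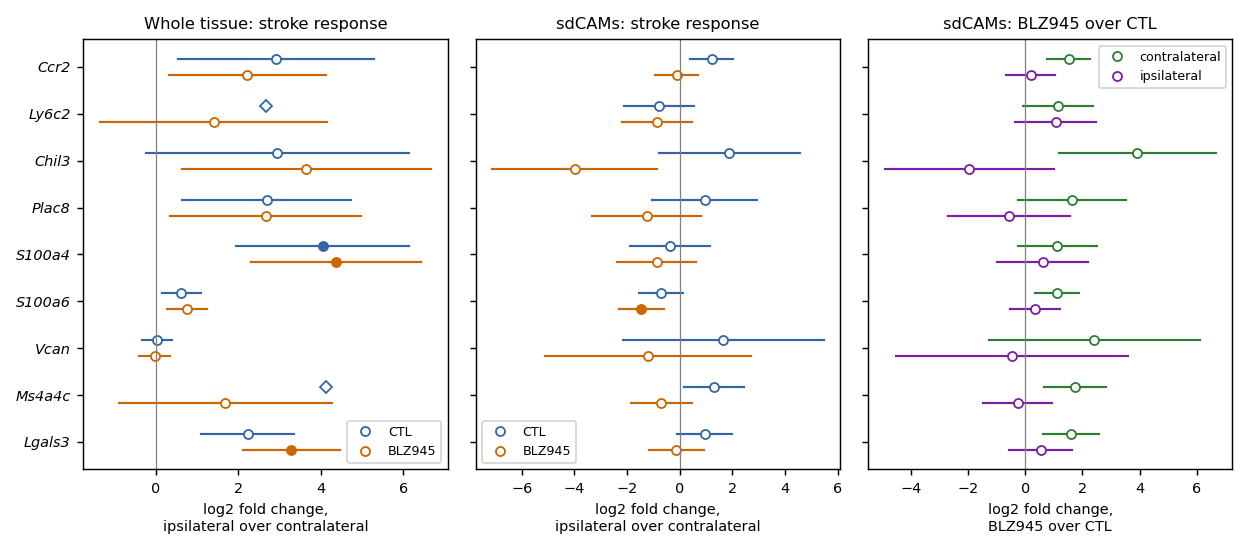
Log2 fold changes of the 9 genes with 95% intervals, for the stroke response in tissue and in sdCAMs and for BLZ945 over CTL in sdCAMs. Filled points were called, diamonds have no interval because a group had 0 counts, and the sdCAM responses lie on both sides of 0 in CTL and below 0 in BLZ945.

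The ligands of CCR2 were read in the same tissue. In CTL 2 of 4 rose on the lesioned side, Ccl12 by 4.21 (adjusted p = 0.000121) and Ccl2 by 3.22 (0.0399). In BLZ945 3 of 4 rose: Ccl2 by 4.81, Ccl12 by 4.36 and Ccl7 by 3.99. Summed, the 4 ligands reached 0.713 to 1.95 CPM contralaterally and 8.74 to 20.7 CPM ipsilaterally in CTL, and 0.523 to 1.93 and 11.7 to 29.3 CPM in BLZ945. The hemispheres did not overlap for this sum under the sample labels. Under the headers' hemispheres for A3, the fit called none of all genes in CTL tissue and a small share in BLZ945 tissue. The CTL tissue calls in this list and in the lists below are therefore lost under the headers. Which BLZ945 calls of these lists remain there was not read. Of 11 adhesion molecules that monocytes use to cross vessels, 0 were called in CTL. In BLZ945 the endothelial ligands Icam1 (1.72) and Sele (5.88) rose and the selectin ligand Selplg fell by 0.65.

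Other genes high in classical monocytes were also examined. Of 18 tested, Fn1 (0.69) and Cybb (2.24) rose in CTL, and Fn1 (1.13), Cybb (1.96) and Thbs1 (3.4) in BLZ945. Fn1 encodes fibronectin, Cybb the catalytic subunit of the phagocyte oxidase and Thbs1 thrombospondin-1, and none is made by monocytes alone. Of 18 tested family relatives of the 9 genes, Ms4a6d and S100a11 rose in both treatments, by 1.69 and 1.87 in CTL and 1.93 and 2.49 in BLZ945. Ly6a (0.97) and the chemokine receptor Ccr1 (3.29) rose in BLZ945.

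Markers of other cells moved in the same libraries. The 13 neutrophil markers summed to 8.64 to 11.4 CPM contralaterally and 10.3 to 26.3 CPM ipsilaterally in CTL, and to 8.36 to 11.7 and 14.7 to 28.9 CPM in BLZ945. Only Lcn2, which astrocytes also make, was called among the 8 tested. Ly6g, which defines neutrophils, was at 0 in all CTL and all contralateral BLZ945 libraries, and was counted in the ipsilateral BLZ945 group. All 6 endothelial markers had log2 fold changes above 0, and 3 of 6 were called in BLZ945 and 0 in CTL. Of 7 astrocyte markers, Gfap (1.55 in CTL and 1.88 in BLZ945) and Vim (1.33 and 1.51) rose in both treatments. The astrocyte sum went from 1129 to 1561 CPM contralaterally to 1606 to 2020 CPM ipsilaterally in CTL, and from 1307 to 1526 to 1820 to 2298 CPM in BLZ945, with no overlap. Siglech (-0.87) and P2ry12 (-0.70) of the 8 microglia markers fell in BLZ945 and none was called in CTL. Microglia sums spanned 402 to 1010 CPM contralaterally and 414 to 940 CPM ipsilaterally over both treatments. The part of these cells in the tissue levels of the 9 genes was not tested.

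In sorted sdCAMs the same genes were more abundant, except Vcan, by margins that differed widely between genes and groups. Ccr2, for example, averaged 0.0914 CPM in contralateral CTL tissue and 79.6 CPM in the sdCAMs of that group. Vcan averaged 26.1 CPM in that tissue and 2.27 CPM in the sdCAMs. In the lesioned CTL hemisphere S100a6 averaged 12.9 CPM in tissue and 43.4 CPM in sdCAMs, and S100a4 0.546 and 4.30 CPM. Tissue and sdCAM tables were normalized separately, so these levels are set side by side without a test. Per kilobase of exon, Lgals3 (71.6 CPM per kb) and S100a6 (51.7) led the contralateral CTL sdCAMs and Vcan (0.157) came last, with Ccr2 at 11.8 and Ly6c2 at 5.64. In contralateral CTL tissue, S100a6 (6.10 CPM per kb), Vcan (1.81) and Lgals3 (0.83) led.

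The stroke response of the monocyte genes in sdCAMs differed in sign between genes and treatments, and only S100a6 passed the test. In CTL 6 of 9 fold changes were above 0, with a median of 0.95. In BLZ945 all 9 were below 0, with a median of -0.88. Over all genes the medians were also below 0, at -0.11 in CTL and -0.15 in BLZ945. Calls over all genes were 78 up and 432 down in CTL, and 220 up and 807 down in BLZ945.

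**Figure D3:**
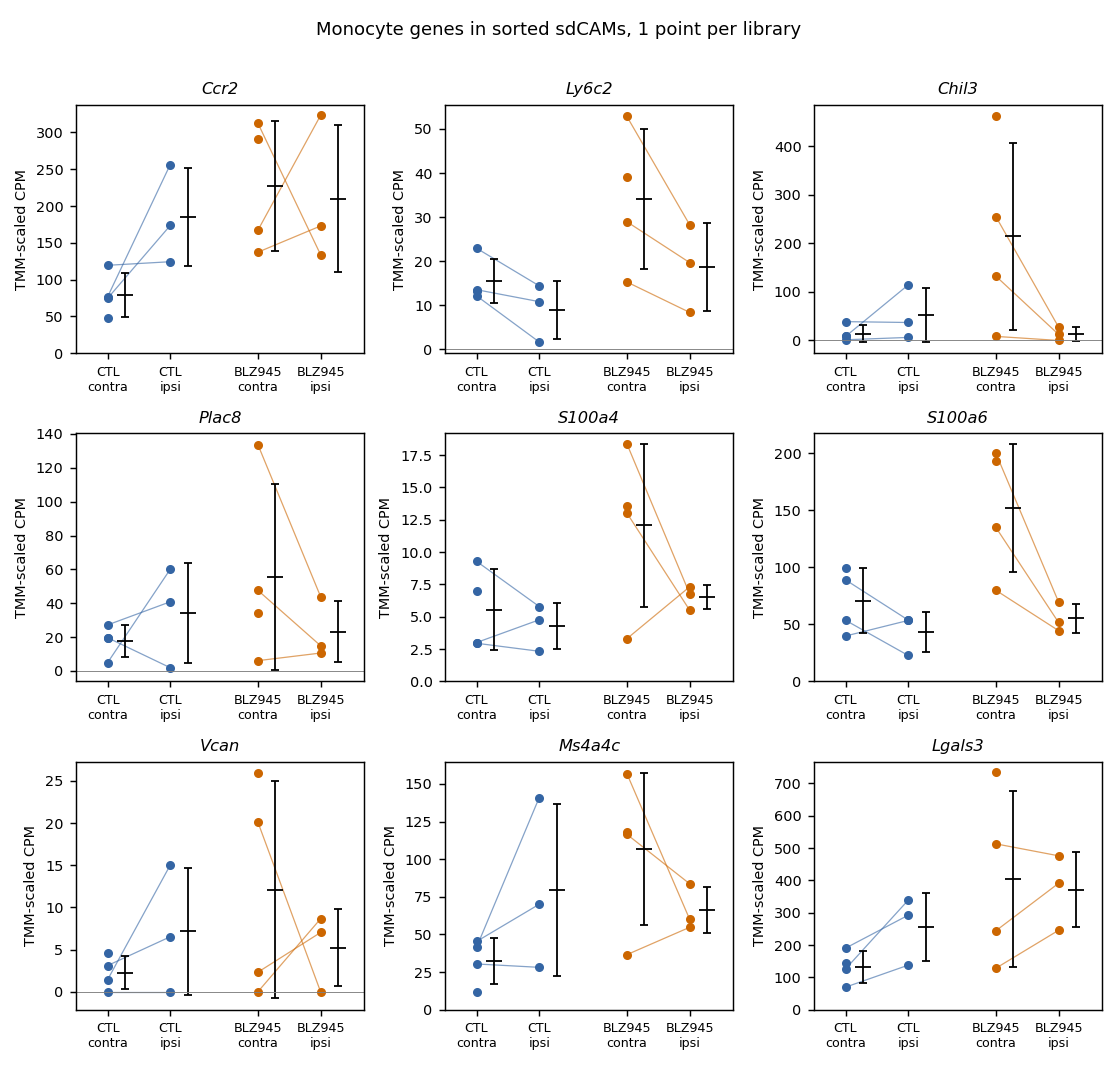
Levels of the 9 monocyte genes in sorted sdCAMs, as TMM-scaled CPM on linear axes, with 1 point per library and lines joining the hemispheres of a mouse. Crossbars and whiskers give mean and SD of 4 contralateral or 3 ipsilateral libraries; the contralateral BLZ945 libraries have the highest mean for each gene.

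S100a6 was measured at 193, 80.0, 200.2 and 135 CPM in the contralateral sdCAMs of C2, C3, C4 and D1. Ipsilaterally it stood at 44.6, 69.8 and 51.8 CPM in C3, C4 and D1. The hemispheres did not overlap and all 3 paired mice had less on the lesioned side. The log2 fold change was -1.46 (SE 0.401, adjusted p = 0.0454). In CTL the contralateral levels were 39.9, 99.9, 53.7 and 89.1 CPM and the ipsilateral ones 53.5, 22.8 and 53.9 CPM, with a value of -0.70 (adjusted p = 0.346). Over both treatments it fell by 1.08 (adjusted p = 0.0171). The BLZ945 call was lost without B1, C2, C3, C4 or D1, with adjusted p-values from 0.0571 to 0.16, and with all 16 libraries in the fit.

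Ccr2 went the other way in CTL sdCAMs. Its contralateral levels were 76.6, 47.6, 119 and 74.6 CPM in A2, A3, A4 and B1, and its ipsilateral levels were 256, 124 and 174 CPM in A2, A4 and B1. All 3 ipsilateral libraries exceeded all 4 contralateral ones, A4 by the least. The log2 fold change of 1.21 (SE 0.379) had an adjusted p of 0.102 in edgeR and 0.0376 in DESeq2, where it was called at 1.14 beside 9.7% of all genes. In BLZ945 the contralateral levels were 292, 137, 167 and 312 CPM, all above the contralateral CTL libraries. The ipsilateral ones were 173, 323 and 134 CPM, and the log2 fold change was -0.11 (SE 0.382).

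Chil3 varied widely between libraries. Contralateral BLZ945 sdCAMs held 461, 8.37, 132 and 255 CPM in C2, C3, C4 and D1. Ipsilaterally C3, C4 and D1 held 0, 12.4 and 27.7 CPM. Within each of these 3 mice the lesioned side was lower, but C3 was low on both sides. The log2 fold change of -3.99 (SE 1.47) had an adjusted p of 0.126. With the mouse as a replicate block it was -3.68 with an adjusted p of 0.0150 and was called, as it was in DESeq2 (-4.08, adjusted p = 0.0424). These fits called 5.19% and 13.5% of all genes. In CTL the contralateral levels were 1.41, 8.42, 8.27 and 38.8 CPM and the ipsilateral levels 6.27, 114 and 37.0 CPM.

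Lgals3 and Ms4a4c were higher on the lesioned side of CTL sdCAMs on average, but did not pass the test. Lgals3 went from 133 ± 50.1 CPM (SD, n = 4) to 256 ± 105 CPM (SD, n = 3), higher in 3 of 3 paired mice. In BLZ945 it was 405 ± 272 CPM contralaterally and 371 ± 117 CPM ipsilaterally. Ms4a4c went from 32.2 ± 15.2 to 79.7 ± 57.0 CPM in CTL and from 107 ± 50.5 to 66.2 ± 15.4 CPM in BLZ945. The fitted Ms4a4c values were 1.31 (adjusted p = 0.209) and -0.69 (adjusted p = 0.477).

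Ly6c2, which encodes the monocyte antigen of the Ly6C gate, was still counted in every sdCAM library. It ranged from 1.69 to 52.8 CPM over the 14 libraries, or 13 to 515 counts. It was lower on the lesioned side in 3 of 3 CTL and 3 of 3 BLZ945 mice, by fitted values of -0.78 and -0.86 that did not pass the test (adjusted p = 0.526 and 0.436). Ly6c1, whose sequence is set beside it above, fell from 1877 to 10342 counts contralaterally to 101 to 578 counts ipsilaterally. Its log2 fold changes were -3.69 in CTL (adjusted p = 0.0102) and -4.83 in BLZ945 (adjusted p = 0.00186). Ly6c2 made up 1.38 to 6.20% of the Ly6c2 and Ly6c1 counts in contralateral CTL sdCAMs and 3.47 to 50.0% ipsilaterally. In BLZ945 the shares were 2.06 to 12.8% and 22.6 to 60.6%. How many Ly6c1 reads were counted as Ly6c2 was not tested.

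Plac8, S100a4 and Vcan were low and scattered in sdCAMs. Plac8 spanned 1.95 to 134 CPM over the 14 libraries and S100a4 2.33 to 18.4 CPM. Vcan was at 0 counts in 4 libraries, A4 on both sides, C3 contralateral and D1 ipsilateral, and reached 26 CPM in C2 contralateral. Their fitted stroke responses had adjusted p-values of at least 0.469 in both treatments.

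In sdCAMs 0 of 9 genes were called in CTL, where 2.79% of all genes were, and 2 of 9 had an unadjusted p under 0.05 (Ccr2 and Ms4a4c), against 18.3%. In BLZ945 1 of 9 was called, against 5.61%, and 2 of 9 had an unadjusted p under 0.05 (Chil3 and S100a6), against 22.3%. Over both treatments 1 of 9 was called, against 15% of all genes, and 1 of 9 had an unadjusted p under 0.05, against 31.5%. The ranges of the hemispheres lay apart for 1 of 9 genes in CTL (Ccr2), against 15.9%, and for 1 of 9 in BLZ945 (S100a6), against 19.9%. Counts of 1 or 2 of 9 are near or below these backgrounds. For the difference of the 2 responses, BLZ945 minus CTL, all 9 values were below 0 with a median of -1.33. An unadjusted p under 0.05 was reached by 3 of 9 (Chil3 -5.89, Ms4a4c -2.0 and Ccr2 -1.33), against 4.98% of all genes. None passed the correction (adjusted p = 0.992), and 0% of all genes did. Both responses share their contralateral libraries with the comparison of treatments that follows.

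Between treatments, contralateral sdCAMs of BLZ945 mice had a higher mean of each monocyte gene than those of CTL mice, but no difference passed the test. All 9 differences were above 0, with a median of 1.61, and the median over all genes was 0. The 9 genes moved together in the sdCAM libraries, with a median rho of 0.46 within groups. Their shared signs, here and in the stroke responses above, are therefore not 9 separate observations. Ccr2 was 227 ± 87.8 CPM against 79.6 ± 29.7 CPM (SD, n = 4 each), and it was the 1 gene of 9 whose ranges lay apart, against 3.25% of all genes. The difference in Ccr2 was 1.51 (SE 0.361, adjusted p = 0.759). Chil3 differed by 3.92 (SE 1.29), Ms4a4c by 1.73, Lgals3 by 1.61 and S100a6 by 1.11. These 5 genes had an unadjusted p under 0.05, against 6.19% of all genes, but the lowest adjusted p among the 9 was 0.759. The other genes differed by 2.41 (Vcan), 1.64 (Plac8), 1.14 (Ly6c2) and 1.12 (S100a4). edgeR called 0 of 9 and 0% of all genes, while DESeq2 called Ccr2 alone of the 9 (1.53, adjusted p = 0.0190), where it called 0.24% of all genes. In ipsilateral sdCAMs 5 of 9 differences were above 0, with a median of 0.18. They were 1.06 for Ly6c2, 0.60 for S100a4, 0.53 for Lgals3, 0.35 for S100a6, 0.18 for Ccr2, -0.27 for Ms4a4c, -0.46 for Vcan, -0.56 for Plac8 and -1.97 for Chil3. None of the 9 was called or had an unadjusted p under 0.05, and 0% of all genes were called.

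For each of the 9 genes the contralateral BLZ945 sdCAMs had the highest mean. For Ccr2, Lgals3 and Ms4a4c the lowest was the contralateral CTL group, and its distance to the next group exceeded the larger SD of the pair. For S100a6 the step from the highest to the next group exceeded it. All other steps in the order of sdCAM group means were within the larger SD of the neighbouring groups. In tissue, the step between the lesioned and the contralateral groups exceeded it for S100a4, S100a6 and Lgals3.

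Other cells were present in the sdCAM libraries and moved with the same groups. The 13 neutrophil markers summed to 444 to 900 CPM in contralateral CTL sdCAMs and to 2287, 320, 3395 and 3074 CPM in those of C2, C3, C4 and D1. All 13 were higher in contralateral BLZ945 sdCAMs than in CTL, with a median difference of 2.26, and 0 were called. Ly6g was at 0 in the ipsilateral BLZ945 libraries. C3, the contralateral BLZ945 library with the least Chil3, was also the one with the lowest neutrophil sum. Ipsilaterally the sums were 377 to 1607 CPM in CTL and 464 to 1343 CPM in BLZ945. Over the 14 libraries, which share these sorts and depths, Spearman's rho of Chil3 with the neutrophil sum was 0.83, and that of the 8 other genes was 0.21 to 0.54.

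**Figure D4:**
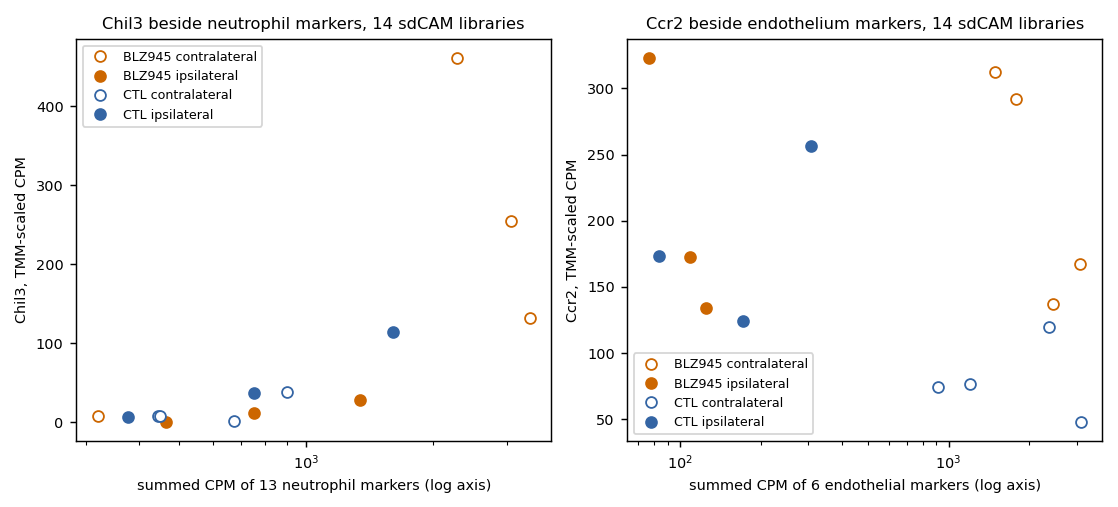
Chil3 beside the summed CPM of 13 neutrophil markers and Ccr2 beside that of 6 endothelial markers, 1 point per sdCAM library, with the marker sums on log axes. The 3 libraries with the most Chil3 among the contralateral BLZ945 group also have the 3 highest neutrophil sums, and the endothelial sums split by hemisphere.

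The 6 endothelial markers fell on the lesioned side in both treatments, with median log2 fold changes of -3.63 in CTL and -4.54 in BLZ945, all 6 called in each. They summed to 917 to 3105 CPM contralaterally and 83.6 to 307 CPM ipsilaterally in CTL, and to 1490 to 3083 and 76.8 to 125 CPM in BLZ945. Oligodendrocyte markers were lower there in 6 of 6 cases per treatment, with 2 called in CTL and 3 in BLZ945, and astrocyte markers in 7 of 7, with 1 and 4 called. Choroid plexus markers, from a tissue that had been removed, summed to 24.5 to 9047 CPM contralaterally and 0.502 to 375 CPM ipsilaterally in CTL. In BLZ945 they summed to 1421 to 37591 and 199 to 1511 CPM. Fibroblast markers were higher in contralateral BLZ945 than CTL sdCAMs for 6 of 6 genes (median 1.41), choroid plexus markers for 5 of 5 (2.61) and microglia markers for 0 of 8 (-0.70), and none of these was called. Border macrophage markers were lower there for 8 of 10 genes (median -0.52), with Cd163 at -1.78, Lyve1 at -1.12, Pf4 at -0.87 and Ms4a7 at -0.80, and 0 called (adjusted p = 0.759 for each of the 4). Border macrophage markers, Mrc1 among them, were higher on the lesioned side for 10 of 10 genes in both treatments, and Lyve1, Pf4 and Ms4a7 were called in BLZ945. The microglia sum ran from 7753 to 29767 CPM over the 14 libraries, beside border macrophage sums of 8003 to 29435 CPM. S100a6, which fell on the lesioned side, had a Spearman's rho of 0.56 with the endothelial sum, -0.75 with the microglia sum and -0.63 with the border macrophage sum. With the microglia sum each of the 9 genes had a rho below 0, from -0.14 for Vcan to the value of S100a6. The part of these cells in the levels of the 9 genes was not tested.

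Relatives and partners gave few calls in sdCAMs. Of the 4 CCR2 ligands, 0 were called in CTL, and Ccl8 rose in BLZ945 by 1.77 (adjusted p = 0.0253). Of 20 other classical monocyte genes, Mgst1 and Tppp3 fell in both treatments, Mgst1 by 1.09 and 0.98 and Tppp3, a gene of ciliated and mural cells as well, by 4.18 and 4.15. Among genes of Ly6C-low patrolling monocytes, Cx3cr1 rose by 1.04 and Ace fell by 4.73 in BLZ945, and 0 of 8 were called in CTL. Cx3cr1 also marks microglia, and Ace the choroid plexus and endothelium. Among the family relatives, S100a11 fell in BLZ945 by 1.61 (adjusted p = 0.0416), and Ly6c1, Ly6a and Plac9 fell in both. The study named MHC class II genes, Fxyd5 and Ccr2 itself for marrow-derived sdCAMs in other libraries. A list of Fxyd5 and 6 genes of the MHC class II pathway, most of them chosen here, was higher in contralateral BLZ945 sdCAMs for 7 of 7, with a median of 0.96 and 0 called.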

How the data were processed

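Libraries of whole tissue and of sorted sdCAMs were sequenced as 50-base single reads. The authors aligned them with STAR 2.7.11a and deposited raw counts per gene from featureCounts 2.0.8, as 1 table per material. The methods name 2 mouse genome builds without saying which these tables used, so no coordinate of a count is given. No normalization had been applied to the deposited counts. Strand handling of the counting is not given in the sources used here.

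Genes were tested where their counts summed to 8 or more in tissue and 7 or more in sdCAMs, which left 18968 and 18297 genes. edgeR 4.0.16 (TMM, quasi-likelihood test, 4 group means) in R 4.3.3 gave fold changes and Benjamini-Hochberg adjusted p-values over all tested genes. Calls needed an adjusted p under 0.05 and a log2 fold change beyond 0.59. Ratios of summed counts carry exact 95% conditional binomial intervals, and intervals and floors cover counting error only. TMM moved levels by -3.53 to 3.41% in tissue and -7.04 to 6.12% in sdCAMs relative to plain CPM. The test was checked on simulated counts. Alternatives were DESeq2 1.42.0, its size factors, other filters, the replicate block, each mouse left out, the header hemispheres of A3 and all 16 sdCAM libraries. The fit with the block and the header hemispheres together was chosen after seeing the data.

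Both hemispheres came from the same mouse by the labels, which pairs the samples. Deviations from group means correlated within mice with a median r of 0.436 in tissue (0.214 to 0.645, 8 mice) and 0.122 in sdCAMs (0.0451 to 0.191, 6 mice). The study's methods state no replicate block, and the main values were fitted without it. No 2 libraries of a group agreed within sampling noise, with a chi-square per degree of freedom of 4.49 to 30.1 in tissue and 35.1 to 139 in sdCAMs.

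All 9 genes were named in every comparison. Of the other lists the text names CCR2 ligands, adhesion molecules, relatives and members that passed the test, apart from 1 relative that is not reported here. The 9 genes and the lists were chosen with earlier results of these data known. For gene patterns, Spearman's rho was taken over log2(CPM + 0.5) values of genes with a mean of at least 1 CPM. Transcripts came from GENCODE M21 and promoters from RefSeq.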

Additional observations from a re-analysis of the deposited data

Results flagged for a closer look

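In 3 of 41 groups of 4 libraries, 1 library stood further from the rest than Dixon's 95% limit. Chance alone gives such a library in about 1 in 20 groups if values are normal and independent, which was not tested here. Chil3 in ipsilateral BLZ945 tissue was highest in C2, at 2.27 CPM against 0.100 to 0.400 CPM in the others (gap over range 0.862). Vcan in ipsilateral CTL tissue was highest in A4, at 36.3 CPM against 23.3 to 24.4 CPM (0.914). Ly6c2 in contralateral CTL sdCAMs was highest in A2, at 22.9 CPM against 12.2 to 13.5 CPM (0.871).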

How the results depend on the processing

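Shares of all genes called under the same setting stand in brackets. The number of the 9 genes called in tissue was 1 in CTL, 2 in BLZ945 and 4 in the mean of both. In CTL it was 2 in DESeq2, S100a4 and Lgals3 (0.733%), 0 without a filter (0.358%), 0 with edgeR's filterByExpr (0.582%), which left 3 of the 9 genes, and 0 to 1 with each mouse left out. In BLZ945 it was 1 with filterByExpr (1.53%) and 0 to 3 with each mouse left out, and in the mean 2 (2.37%) and 2 to 4. With the header hemispheres of A3 it was 0, 0 and 0 (0%, 0.0316% and 0.00527%), and with the replicate block as well 0, 1 and 1 (0%, 0.975% and 0.77%). Under these 2 settings Ms4a4c in CTL tissue turned to -0.35 and -0.047. In sdCAMs the count was 0 in CTL, 1 in BLZ945 and 1 in the mean. It was 1 in CTL (9.7%) and 2 in BLZ945 (13.5%) with DESeq2, 2 in BLZ945 (5.19%) and 2 in the mean (10.1%) with the replicate block, and 0 and 0 with all 16 libraries (2.33% and 6.44%). Leaving out each mouse gave 0 to 1 in BLZ945 and 1 to 1 in the mean. For contralateral BLZ945 against CTL sdCAMs the count was 0, and 1 in DESeq2 (0.24%). The replicate block also took the S100a4 call in CTL tissue (adjusted p = 0.0774) and added Lgals3 there. Of 515 values of the 34 fold changes that were called or had an unadjusted p under 0.05, 2 changed sign, both Ms4a4c in CTL tissue. Of 1099 values of the 74 other fold changes, 75 changed sign. Except as these settings show, the cause was not tested. Depth limits tissue most, where 6 of the 9 genes had a mean under 3 counts in at least 1 group. The 2 degraded libraries leave 3 ipsilateral sdCAM libraries per treatment.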

Other observations

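Genes with the pattern most like the monocyte genes were read as a description, with no test. In tissue, over 16 libraries and 14314 genes, the nearest to Ccr2 by Spearman's rho were Lcp1 (0.89), Ifi204 (0.89), the CCR2 ligand Ccl2 (0.88), Sbno2 (0.87) and Apobec3 (0.87). The mean score of S100a6, Vcan and Lgals3, the genes with at least 3 counts in every group mean, was nearest to Lair1 (0.92), Atf3 (0.91), Nfkbiz (0.90), Nes (0.89) and Ppp1r15a (0.88). In sdCAMs, over 14 libraries and 13819 genes, the mean score of the genes was nearest to Cstb (0.96), Tarm1 (0.95), Bst1 (0.94), Capg (0.92) and Il1r2 (0.92). Ccr2 alone was nearest to Ect2 (0.88), Dck (0.87), Napsa (0.87), Capg (0.86) and Itgax (0.86). The libraries share hemispheres, groups and depth, which these values do not separate.

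Among themselves the 9 genes had a median rho of 0.53 in sdCAMs over 36 pairs (0.21 to 0.83). Within groups the median was 0.46, and 35 of 36 pairs were above 0. In tissue, where only S100a6, Vcan and Lgals3 were compared, the median rho was 0.17 over 3 pairs (-0.2 to 0.69). Within groups of tissue it was 0.2 (-0.36 to 0.24).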
